A study of Mus musculus with 4 samples.

Results

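Crystallins are the proteins first known from the eye lens, and 10 of their genes, *Cryaa*, *Cryab*, *Cryba1*, *Cryba2*, *Cryba4*, *Crybb1*, *Crybb2*, *Crybb3*, *Crygs* and *Crym*, were read in RNA-seq of mTFP-positive retinal cells from control and *Rax* iCKO mice. The genes were chosen by name, and all 10 are among the 24322 gene symbols in the data. The question was whether their RNA differed between control and *Rax* iCKO cells, which differ in *Rax*, a paired-type homeobox gene of the eye field and of Müller glia. The *Rax* iCKO libraries, numbered 7983 and 3914, came from mice with *Rax* flox/flox, and the controls, numbered 7984 and 3911, from mice with *Rax* flox/WT, so that the controls also carried 1 floxed allele. All 4 mice also carried *Rlbp1-CreERT2* and *R26-CAG-LoxP-mTFP1* and were given tamoxifen at P4, with retinas taken at P14. The labels name 129S6 for all of them. The Cre was driven by a promoter fragment of *Rlbp1*, a Müller glial gene, which in these mice was also active in the retinal pigment epithelium. The sort took mTFP-positive cells from whole dissociated retinas, so a library is a bulk sample of all cells that entered the gate.

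The alpha-crystallins, αA (*Cryaa*) and αB (*Cryab*), are small heat shock proteins that bind unfolding proteins and keep them from aggregating. The beta- and gamma-crystallins are structural proteins of the lens that share a Greek key fold, and they give the lens fibre its high protein concentration. *Crym* encodes μ-crystallin, which is unrelated to both families: it binds thyroid hormone with NADPH, has ketimine reductase activity and was named as a lens protein of some marsupials. Outside the lens, αB-crystallin is made in heart, muscle and glia, and crystallin RNAs are also known from the retina.

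The values are FPKM, the fragments on a gene scaled to exon length and to the mapped fragments of the library, which allows genes of different length to be compared. Their sum over all genes differed between libraries, from 492728 to 616277, and values are given as deposited. The mapped reads, estimated from the whole-read steps of the low values, were between 9250000 and 12680000 in a library, deepest in control 7984. The estimates depend on 200 bases taken off each transcript length. For *Rax* iCKO 7983, at 9400000, the genes behind them had quartiles of 8360000 and 9440000. The 4 libraries are biological replicates in the study's terms, 2 per genotype, and an exact permutation test of 2 against 2 cannot go below a two-sided p of 0.333. The numbers fall into the runs 7983 and 7984 and 3911 and 3914, each with 1 library of each genotype, and the labels do not say what a run is. *Rax* itself was at 189 FPKM in control 7984 and 181 in control 3911, against 111 in *Rax* iCKO 7983 and 98.4 in *Rax* iCKO 3914. This is a log2 fold change of -0.82 (SE 0.21), with an unadjusted p of 0.00859 and an adjusted p of 0.9999 in limma over 12363 genes. With the run of numbers as a block, the adjusted p was 0.0223. The Müller glial markers *Rlbp1*, *Glul*, *Apoe* and *Clu* were at 1001.8 FPKM or more in every library. Markers of other retinal cells were present too: the bipolar cell marker list summed to between 5236 and 11856 FPKM and the rod list to between 1615 and 2519.9.

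The promoters of 8 of the 10 genes were matched in RefSeq (GRCm38.p6), in a window around the start of each gene. Those of *Cryab* and *Crym* were not among them. 4 are shown, *Crybb1* and *Cryba1* because they are the β-crystallins with the most RNA here, and *Cryaa* and *Crybb2* because they hold TAATT, the core that paired-type homeodomain proteins such as Rax bind. Capitals mark the motifs, each searched on both strands: TATAAA of the TATA box, TAATT, and TGCTGA, the core of the Maf recognition element that is known from lens crystallin promoters. The sequences read 5′ to 3′ along the strand of the gene. They lie at chr5:112255570-112255869 on the plus strand for *Crybb1*, chr11:77725244-77725543 on the minus strand for *Cryba1*, chr17:31677681-31677980 on the plus strand for *Cryaa*, and chr5:113070068-113070367 on the minus strand for *Crybb2*.
Crybb1: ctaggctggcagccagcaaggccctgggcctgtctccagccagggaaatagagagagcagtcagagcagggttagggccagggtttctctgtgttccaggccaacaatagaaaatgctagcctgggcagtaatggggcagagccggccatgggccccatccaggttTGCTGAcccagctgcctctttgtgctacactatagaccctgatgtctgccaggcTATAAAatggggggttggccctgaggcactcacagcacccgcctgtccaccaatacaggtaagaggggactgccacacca
Cryba1: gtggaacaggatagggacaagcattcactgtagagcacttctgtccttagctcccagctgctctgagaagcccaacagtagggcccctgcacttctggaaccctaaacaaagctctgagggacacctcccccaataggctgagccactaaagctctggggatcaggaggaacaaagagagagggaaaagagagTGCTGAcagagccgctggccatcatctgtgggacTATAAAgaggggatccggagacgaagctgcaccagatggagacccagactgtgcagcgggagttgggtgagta
Cryaa: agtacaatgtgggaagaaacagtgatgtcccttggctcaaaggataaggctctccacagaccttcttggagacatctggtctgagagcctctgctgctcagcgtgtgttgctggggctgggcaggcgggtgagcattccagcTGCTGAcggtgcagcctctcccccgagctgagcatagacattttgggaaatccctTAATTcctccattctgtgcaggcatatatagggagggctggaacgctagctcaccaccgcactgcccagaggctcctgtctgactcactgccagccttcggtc
Crybb2: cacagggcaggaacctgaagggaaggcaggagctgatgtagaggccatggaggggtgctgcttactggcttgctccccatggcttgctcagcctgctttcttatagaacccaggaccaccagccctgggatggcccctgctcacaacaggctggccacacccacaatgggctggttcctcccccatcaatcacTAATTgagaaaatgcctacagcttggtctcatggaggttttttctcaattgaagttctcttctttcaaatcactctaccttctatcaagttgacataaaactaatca

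TGCTGA was found in 7 of the 8 promoters, all but *Crybb2*, and in 19.5% of 32851 promoters of the same length. *Cryba4* held it at 3 places, and in *Crybb1* it began 84 bases before the start. TATAAA was in 4 of the 8 (*Cryba1*, *Cryba2*, *Crybb1* and *Crygs*), against 13.6% of all promoters. It began 30 bases before the start in *Crybb1*, 25 in *Crygs*, 23 in *Cryba1* and only 3 in *Cryba2*. TAATT was in 2 of the 8, 53 bases before the start in *Cryaa* and 57 in *Crybb2*, against 27.0% of all promoters. GAANNTTC, the core of a heat shock element, was in 0 of the 8 and in 7.86% of all. The matches did not overlap one another, and a match is a run of letters, not a bound site.

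Crystallin RNA in these cells was mostly that of *Crym*. The 10 genes together held 0.483% of all FPKM in control 7984 and 0.384% in control 3911, and 0.330% in each *Rax* iCKO library. *Crym* made up between 83.9% and 86.7% of this sum and *Cryab* between 12.9% and 15.6%. The other 8 genes, the classical lens proteins, summed to 6.34 FPKM in control 7984, 9.40 in control 3911, 3.19 in *Rax* iCKO 7983 and 10.4 in *Rax* iCKO 3914. *Crym* lay above *Cryab* and *Cryab* above *Crybb1* in every library by more than the spread between libraries. Below them, *Crybb1* and *Cryba1* changed places in *Rax* iCKO 3914, and *Crybb3*, *Cryba4*, *Cryaa* and *Cryba2* did not differ beyond their spread.

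**Figure D1:**
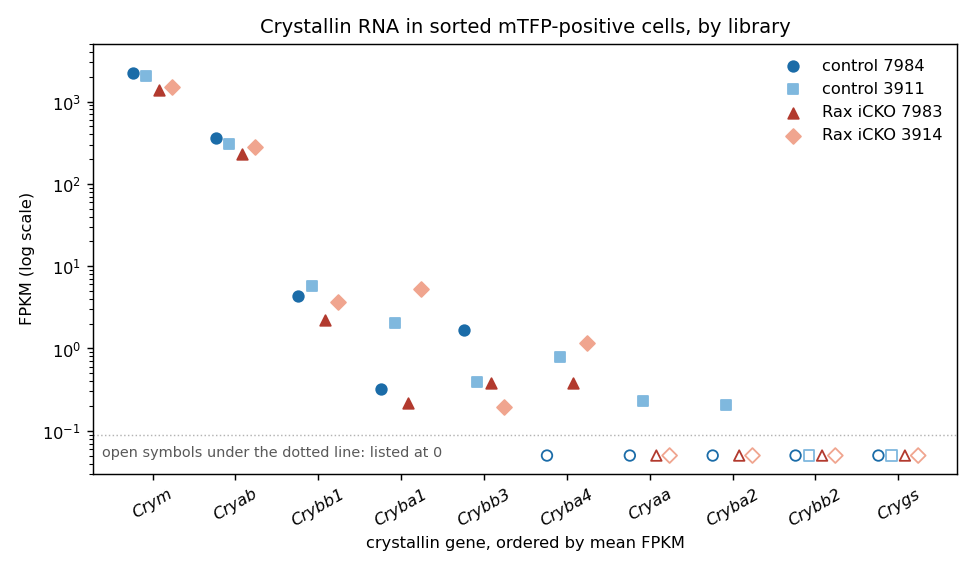
FPKM of the 10 crystallin genes on a log axis, 1 point per library, ordered by mean FPKM. *Crym* and *Cryab* stand above 232 FPKM in all 4 libraries, with both *Rax* iCKO points under both controls, and the other 8 genes lie under 6 FPKM.

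*Crym* (chr7:120186380-120202111, minus strand, GRCm38) was among the most abundant RNAs of the libraries, at rank 11 in control 7984, 18 in control 3911, 20 in *Rax* iCKO 7983 and 21 in *Rax* iCKO 3914. It was at 2199 FPKM in control 7984, 2053 in control 3911, 1389 in *Rax* iCKO 7983 and 1520.4 in *Rax* iCKO 3914. Both *Rax* iCKO libraries lay under both controls, with no overlap. The means were 2126 ± 103 FPKM in the controls and 1455 ± 93.2 in the *Rax* iCKO (SD, n = 2 each), a ratio of 0.684. In limma the log2 fold change was -0.55 (SE 0.37), with an unadjusted p of 0.186 and an adjusted p of 0.9999, so the difference did not pass the test. Within the runs of numbers it was -0.66 between 7983 and 7984 and -0.43 between 3914 and 3911. After quantile normalization it was -0.24, with both *Rax* iCKO libraries still under both controls.

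*Cryab*, the small heat shock protein αB-crystallin (chr9:50751325-50756636, plus strand), was at 356 FPKM in control 7984 and 307 in control 3911, against 232 in *Rax* iCKO 7983 and 282 in *Rax* iCKO 3914. Again both *Rax* iCKO libraries lay under both controls, but the nearest of the 2 groups, control 3911 and *Rax* iCKO 3914, were close. The means were 331 ± 35.0 FPKM in the controls and 257 ± 35.5 in the *Rax* iCKO (SD, n = 2 each), a ratio of 0.776. The log2 fold change of -0.37 (SE 0.25) had an adjusted p of 0.9999 in limma. It was -0.62 in the run of 7983 and 7984 and -0.12 in that of 3914 and 3911. Leaving out *Rax* iCKO 7983 gave -0.23 and leaving out *Rax* iCKO 3914 gave -0.51. With equal totals or quantile normalization the groups overlapped, and the log2 fold change was -0.21 with quantile normalization.

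The ratio of *Crym* to *Cryab* FPKM was 6.17 and 6.70 in controls 7984 and 3911 and 5.98 and 5.38 in *Rax* iCKO 7983 and 3914, so that *Crym* was the further below the controls of the pair. *Cryab* shares 252 exonic bases with *Hspb2*, a small heat shock protein gene on the opposite strand whose start lies 1029 bases away, and the sources used here do not say whether counting used the strand. *Hspb2* was at 2.97 and 4.46 FPKM in controls 7984 and 3911 and at 4.21 and 3.002 in *Rax* iCKO 7983 and 3914, and the groups overlapped.

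*Crybb1*, a basic β-crystallin of lens fibres (chr5:112255815-112269585, plus strand), was the structural crystallin with the highest mean FPKM, though *Cryba1* was above it in *Rax* iCKO 3914. It was at 4.32 FPKM in control 7984, 5.77 in control 3911, 2.21 in *Rax* iCKO 7983 and 3.68 in *Rax* iCKO 3914. The groups did not overlap, and the mean was 5.05 ± 1.02 FPKM in the controls and 2.94 ± 1.04 in the *Rax* iCKO (SD, n = 2 each). The log2 fold change of -0.63 (SE 0.31) had an unadjusted p of 0.0894 and an adjusted p of 0.9999 in limma. It was -0.73 in the run of 7983 and 7984 and -0.53 in that of 3914 and 3911. Leaving out *Rax* iCKO 7983 gave -0.36 and leaving out *Rax* iCKO 3914 gave -0.90. Its neighbour *Cryba4*, an acidic β-crystallin on the opposite strand whose start is 3297 bases away, was far lower and is described with the low genes.

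*Cryba1*, which encodes the acidic crystallins βA3 and βA1 (chr11:77718615-77725283, minus strand), varied more between the runs of numbers, by 1.78 in log2(FPKM + 1), than between genotypes. It was at 0.326 FPKM in control 7984, 2.01 in control 3911, 0.220 in *Rax* iCKO 7983 and 5.35 in *Rax* iCKO 3914. The genotypes overlapped, while both libraries of the run of 3911 and 3914 lay above both of the other run, as did 29.1% of the genes tested, with 26.8% below. The smallest whole numbers of reads that match the steps of these values are 2, 9, 1 and 24. If the values are whole-read steps, the reads behind them are at least these. Such steps matched 91.5% of low genes at up to 20 reads, and 34.5% after random noise, so 1 match is weak evidence. The log2 fold change between genotypes was 0.48 (SE 0.81, adjusted p 0.9999 in limma), and it was -0.12 in the run of 7983 and 7984 and 1.08 in the other. Its sign depended on 1 library: it was -0.11 without control 7984, -0.71 without *Rax* iCKO 3914 and 1.67 without *Rax* iCKO 7983.

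**Figure D2:**
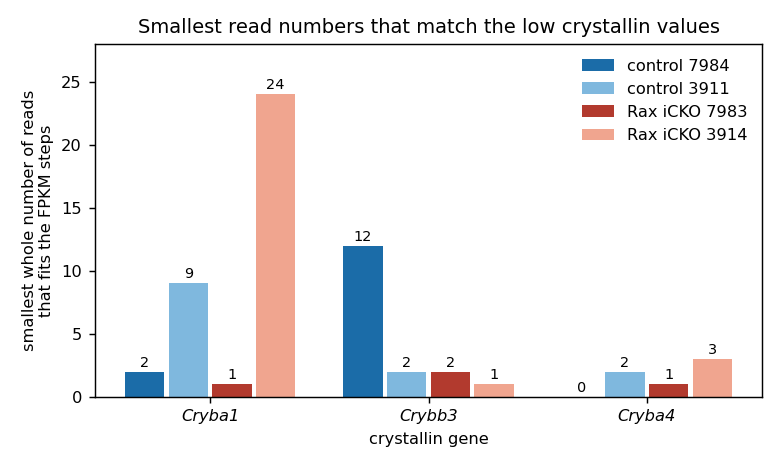
Smallest whole number of reads that matches the FPKM steps of *Cryba1*, *Crybb3* and *Cryba4* in each library, as bars from 0. *Cryba1* reaches 24 reads in *Rax* iCKO 3914 and *Crybb3* 12 reads in control 7984, and *Cryba4* reaches 3 in *Rax* iCKO 3914. The true numbers can be whole multiples of those drawn, and a match can also arise without whole-read steps.

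By likeness of profile, measured as the root mean square distance of log2(FPKM + 1) centred over the 4 libraries, the genes nearest to *Cryba1* of 12355 were *Bambi-ps1*, *Amy1*, *4930563F08Rik*, *2900055J20Rik* and *2610318N02Rik*. Their distances were between 0.12 and 0.32, against a median of 0.98 over all genes. The nearest of so many genes lie under the median by choice, so all distances given here are description only. *Amy1*, a salivary-type amylase gene, was at 6.01 FPKM in control 7984, 15.3 in control 3911, 7.10 in *Rax* iCKO 7983 and 27.3 in *Rax* iCKO 3914, the same order of runs. The same measure was applied to *Crym* and *Cryab* after their values were seen. *Snhg18*, *Rab20*, *Rdm1*, *Plscr1* and *Fxyd1* were nearest to *Crym*, at distances between 0.0257 and 0.0337 (median 0.36), and *Ngef*, *Ccdc65*, *Rgcc*, *Wdr45b* and *Hdac11* to *Cryab*, between 0.0181 and 0.0352 (median 0.32). *Fxyd1*, a regulator of the sodium pump, was the most abundant of these, at 315 FPKM in control 7984, 308 in control 3911, 212 in *Rax* iCKO 7983 and 226 in *Rax* iCKO 3914.

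The remaining crystallins were near the detection limit. *Crybb3*, a basic β-crystallin, was at 1.69 FPKM in control 7984 and 0.387 in control 3911, against 0.381 in *Rax* iCKO 7983 and 0.193 in *Rax* iCKO 3914. Both *Rax* iCKO libraries lay under the lower control, 7983 only just, but the smallest numbers of reads that match the steps are 2 in both control 3911 and *Rax* iCKO 7983, and 12 in control 7984. *Cryba4* was listed at 0 in control 7984 and was at 0.783 FPKM in control 3911, 0.385 in *Rax* iCKO 7983 and 1.17 in *Rax* iCKO 3914, where at least 3 reads match the steps. *Cryaa*, the α-crystallin partner of αB in the lens, was at 0.233 FPKM in control 3911 and listed at 0 in the others. *Cryba2*, an acidic β-crystallin, was at 0.208 FPKM in control 3911 and listed at 0 in the others. *Crybb2*, the main basic β-crystallin of the lens, and *Crygs*, the γS-crystallin, were listed at 0 in all 4. A value of 0 here can also be a failed estimate, and 1 read would be worth between 0.112 and 0.153 FPKM on the longest transcript of *Crybb2*.

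Of the 10 genes, 4 passed the filter of a mean of 1 FPKM (*Crym*, *Cryab*, *Crybb1* and *Cryba1*), and 0 were called at an adjusted p under 0.05 in limma or passed an unadjusted 0.05. Over all genes tested 0.0162% were called lower and 0.00809% higher, and 1.6% and 1.26% passed an unadjusted 0.05. *Crym*, *Cryab* and *Crybb1*, 3 of the 4, had both *Rax* iCKO libraries below both controls, against 14.1% of all genes tested and 22.3% of the 1064 genes with a mean of at least 100 FPKM. None of the 4 had both above, against 15.4% of all genes tested and 5.08% of those abundant ones. The median log2 fold change of the 4 was -0.46, beside -0.0044 over all genes tested, and was -0.29 without *Rax* iCKO 7983 and -0.66 without *Rax* iCKO 3914. After quantile normalization it was -0.23. Without the filter, over all members above 0 in any library, the median was -0.26.

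**Figure D3:**
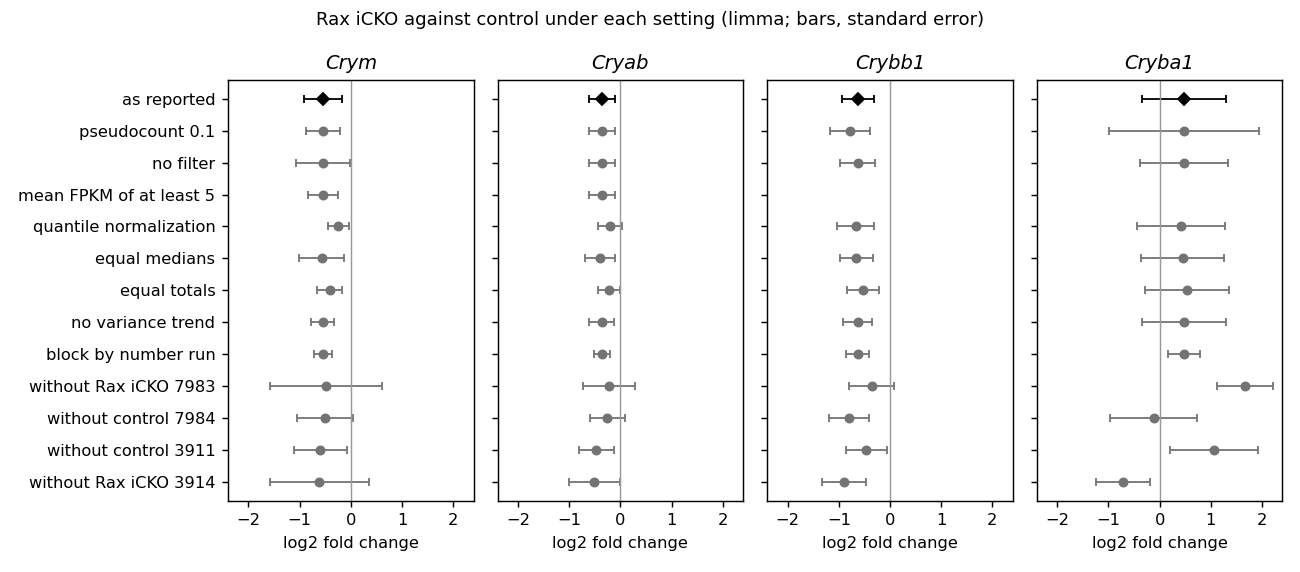
Log2 fold change (*Rax* iCKO minus control, limma) of the 4 tested crystallins as reported and under each alternative setting, with bars of 1 standard error. *Crym*, *Cryab* and *Crybb1* stay below 0 in every setting drawn, whereas *Cryba1* runs from -0.71 to 1.67 when single libraries are left out.

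Marker lists of the cells in the gate are given beside the abundant crystallins. No gene of any list was called in limma. The 15 Müller glial markers summed to 19865 FPKM in control 7984, 15412 in control 3911, 13237 in *Rax* iCKO 7983 and 13472 in *Rax* iCKO 3914, and 7 of the 15 had both *Rax* iCKO libraries below both controls, among them *Rlbp1*, *Car2* and *Vim*, against 14.1% of all genes tested and 22.3% of those with a mean of at least 100 FPKM. Their median log2 fold change was -0.33, or -0.62 without control 3911 and -0.10 without control 7984. It was -0.18 after quantile normalization and -0.20 with equal totals. Of the 15 markers 1, *Spc25*, passed an unadjusted 0.05. *Rlbp1*, the retinaldehyde-binding protein whose promoter drove the Cre, was at 2616 and 2159 FPKM in controls 7984 and 3911 and at 1292 and 1560.2 in *Rax* iCKO 7983 and 3914. Of the 13 rod markers, 10 lay below both controls in both *Rax* iCKO libraries (median -0.57, summed 2479 and 2519.9 FPKM in controls 7984 and 3911, 1786 and 1615 in *Rax* iCKO 7983 and 3914), and 5 of the 13 passed an unadjusted 0.05 with a lower value, against 1.6% of all genes tested. The rod median was -0.32 without *Rax* iCKO 3914 and -0.76 without *Rax* iCKO 7983. The 11 bipolar markers had a median of 0.31, with 5 above both controls, against 15.4% of all genes tested and 5.08% of the abundant ones, and the median was -0.018 without control 7984 and 0.0997 without *Rax* iCKO 3914. The astrocyte list (4 of 5 genes tested) summed to 57.1 and 48.5 FPKM in controls 7984 and 3911 and to 33.06 and 33.12 in *Rax* iCKO 7983 and 3914. Its median was -0.47, and -0.54 to -0.38 when single libraries were left out, with 2 of the 4 below both controls and 1 at an unadjusted p under 0.05. The 10 microglial markers summed to 72.7 and 84.2 FPKM in controls 7984 and 3911 and to 119 and 22.9 in *Rax* iCKO 7983 and 3914. In bulk cells, fewer cells of a type and less RNA per cell cannot be told apart.

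Set against the summed Müller glial markers, the crystallin differences were smaller. These ratios were chosen after the values were seen. *Crym* per summed marker FPKM was 0.111 in control 7984, 0.133 in control 3911, 0.105 in *Rax* iCKO 7983 and 0.113 in *Rax* iCKO 3914, and the groups overlapped. Within each run of numbers the *Rax* iCKO value for *Crym* was the lower. *Cryab* per summed marker FPKM was 0.0179 and 0.0199 in controls 7984 and 3911 and 0.0175 and 0.0210 in *Rax* iCKO 7983 and 3914, which also overlapped. As a quotient of the genotype means, *Crym* was 0.893 and *Cryab* 1.02 per Müller glial marker FPKM, beside 0.684 and 0.776 for FPKM alone. With *Rlbp1* left out of the sum the quotients were 0.864 and 0.985, and with *Apoe* left out 0.942 and 1.07, with overlap each time. Per summed bipolar marker FPKM the groups overlapped for both genes, and control 7984 stood apart: *Crym* was at 0.420 there, against 0.173 in control 3911, 0.195 in *Rax* iCKO 7983 and 0.153 in *Rax* iCKO 3914, and *Cryab* at 0.0680 there, against 0.0259, 0.0325 and 0.0284. Against *Rlbp1* alone both genes lay above the controls in both *Rax* iCKO libraries: *Crym* per *Rlbp1* was 0.840 and 0.951 in controls 7984 and 3911 and 1.07 and 0.975 in *Rax* iCKO 7983 and 3914, and *Cryab* per *Rlbp1* was 0.136 and 0.142 in the controls and 0.1797 and 0.181 in the *Rax* iCKO. The part of the cell makeup in the crystallin differences was not tested.

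**Figure D4:**
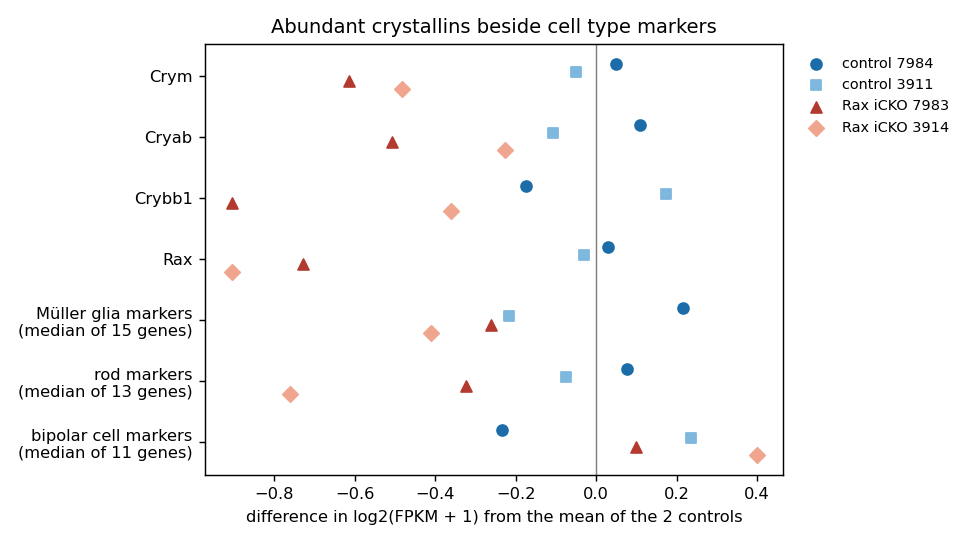
Difference in log2(FPKM + 1) from the mean of the 2 controls, 1 point per library, for *Crym*, *Cryab*, *Crybb1* and *Rax* and for the median of the Müller glial, rod and bipolar marker lists. Both *Rax* iCKO points lie left of both controls for the 4 genes and for the Müller glial and rod medians, and the bipolar medians overlap.

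Lens markers were mostly at or near 0. Of 16 lens fibre and epithelium markers, 6 were listed at 0 in all libraries, *Lim2*, *Gja3*, *Lgsn*, *Dnase2b*, *Foxe3* and *Pitx3*, and *Mip*, the main membrane protein of the lens fibre, was at 0.0554 FPKM or less in every library. The list summed to between 31.8 and 39.2 FPKM, most of it *Tdrd7* (13.7 to 20.1), *Lenep* (8.75 to 11.7) and *Bfsp2* (3.71 to 6.61), and the groups overlapped in the sum. The median of the 4 tested was 0.03. The pigment epithelium and melanocyte markers, which matter because the Cre was active there, summed to 5.53 and 8.01 FPKM in controls 7984 and 3911 and to 8.99 and 10.6 in *Rax* iCKO 7983 and 3914. Both *Rax* iCKO sums lay above both controls. Without *Ttr*, which is also in the thyroid hormone list, a choice made after the values were seen, the sums were 4.53 and 3.89 in the controls and 6.5 and 3.26 in the *Rax* iCKO, and the groups overlapped. *Rpe65*, the retinoid isomerase that defines pigment epithelium, was at 0 and 0.131 FPKM in the controls and at 0.774 and 0 in the *Rax* iCKO, and *Mlana* was listed at 0 in all 4.

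Genes related to the crystallins by name or family differed in direction. Of 15 further crystallin-named genes, 13 were in the data and 4 were tested, with a median of -0.10. This median was 0.15 without control 3911, -0.35 without control 7984 and 0.030 with equal totals. *Cryz*, ζ-crystallin, a quinone reductase, was at 77.4 and 69.2 FPKM in controls 7984 and 3911 and at 52.0 and 41.1 in *Rax* iCKO 7983 and 3914 (log2 fold change -0.65, SE 0.22, unadjusted p 0.0248, adjusted p 0.9999 in limma). *Crybg3*, a large non-lens protein of the βγ-fold, was at 4.17 and 3.63 FPKM in the same controls and at 6.41 and 7.52 in the *Rax* iCKO (0.70, SE 0.25, unadjusted p 0.0325, adjusted p 0.9999). *Cryl1* and *Cryzl1* overlapped. The γ-crystallins *Crygc*, *Cryge*, *Crygf* and *Crygn* were listed at 0 throughout, and *Cryga* and *Crygb* were at 0.546 FPKM or less in every library. Of the other small heat shock protein genes, 4 of 9 were tested, none called, with a median of -0.11. It was 0.11 without control 3911 and 0.027 without the filter. None of the 4 had its groups apart, against 14.1% below and 15.4% above over all genes tested, while *Hspb7* and *Hspb8*, too low to be tested, had both *Rax* iCKO libraries above both controls, at 0.598 FPKM or less. *Hspb6* was at 36.2 and 41.0 FPKM in controls 7984 and 3911 and 37.6 and 40.7 in *Rax* iCKO 7983 and 3914, and *Hspb11* at 56.5 and 96.1 against 53.9 and 68.2.

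Of 18 regulators of crystallin genes, 12 were tested, 0 called, with 2 above and 0 below the controls, against 15.4% and 14.1% of all genes tested, and a median of -0.15, which was 0.29 without control 7984 and 0.25 without *Rax* iCKO 3914. *Prox1*, a homeobox gene of lens fibres and of horizontal and other retinal cells, was at 74.6 and 76.1 FPKM in controls 7984 and 3911 and at 106 and 97.7 in *Rax* iCKO 7983 and 3914 (log2 fold change 0.43, SE 0.20, unadjusted p 0.0755). The lens heat shock factor *Hsf4* was at 0.151 FPKM in control 3911 and listed at 0 in the others. *Pax6*, an activator of crystallin genes in lens, was at 70.6 and 48.4 FPKM in the controls and 60.8 and 46.2 in the *Rax* iCKO, and the groups overlapped. Of 17 genes that carry, convert or read thyroid hormone, the ligand of μ-crystallin, 12 were tested and 0 called. Of these, 3 lay above (*Hr*, *Ncor1* and *Thrb*) and 0 below the controls, against 15.4% and 14.1% of all genes tested. The median was 0.14, or -0.055 without control 3911, -0.026 without *Rax* iCKO 7983 and 0.35 without control 7984. *Thra*, the α receptor, was at 41.3 and 26.7 FPKM in controls 7984 and 3911 and 43.4 and 26.9 in *Rax* iCKO 7983 and 3914, following the run of numbers rather than the genotype. *Dio2*, which activates the hormone, was at 20.03 and 23.6 FPKM in the controls and 14.9 and 24.0 in the *Rax* iCKO, which overlapped.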

How the data were processed

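RNA-seq libraries of mTFP-positive cells were analysed, 2 control and 2 *Rax* iCKO. The authors mapped 101-base single-end reads to mm10 and deposited 1 FPKM per gene symbol and library, calculated with Cufflinks or Cuffdiff. The submitters' processing notes name TopHat2 2.1.1, Bowtie2 2.2.8, SAMtools 0.1.18 and Cuffdiff 2.2.1. The study's methods name other versions of TopHat, Bowtie2 and SAMtools, and Cufflinks 2.2.1. The labels name a spin-column kit for the RNA and the methods TRIzol LS. FPKM were used as deposited, and the depth estimates rest on 357 genes with steps read to a tolerance of 0.03 reads.

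The genotypes were set against each other in limma 3.58.1 (R 4.3.3, lmFit and eBayes with a variance trend) on log2(FPKM + 1), which understates changes of low genes, for 12363 genes whose mean FPKM was 1 or more, and p-values were adjusted by Benjamini-Hochberg. Single values had exact permutation tests (scipy 1.17.1), and the steps were tested on simulated data. For the read steps these were whole reads without added error, so the test does not show how real values behave. Errors are SD. The members and lists were chosen with earlier results of these data known. The genes named are the 10 members, *Rax*, list members and the 5 genes nearest in profile to the tested member with the widest range. The profile neighbours of *Crym* and *Cryab* were added after their values were seen. Gene coordinates are from GENCODE on GRCm38, promoters from RefSeq. Alternatives are given at the end.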

Additional observations from a re-analysis of the deposited data

How the results depend on the processing

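With 2 libraries per genotype, only differences far larger than the spread between libraries could be called, and genes under about 1 FPKM rest on few reads. *Crym* (-0.57 to -0.24), *Cryab* (-0.39 to -0.21) and *Crybb1* (-0.79 to -0.53) kept a negative log2 fold change under every setting of pseudocount, filter, scaling, variance trend and block, and none of the 4 tested crystallins was called under any setting run. A mean FPKM of at least 5 left out *Crybb1* and *Cryba1*. The median of the 4 was -0.23 after quantile normalization, and with equal totals the median of all genes was 0.11.

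Over all genes limma called 1 higher and 2 lower. Without the filter it called 0 and 0 (254 and 370 at an unadjusted p under 0.05), with a mean FPKM of at least 5 0 and 0 (117 and 162), with equal totals 0 and 0 (337 and 72), and higher genes numbered 2 after quantile normalization and 3 with equal medians. Leaving out single libraries gave 7 to 14 higher and 5 to 12 lower. It moved *Cryba1* from -0.71 to 1.67 (-0.11 without control 7984), gave 0 to 1 crystallins above the controls, and took the median of the 4 crystallins from -0.66 to -0.29. It turned the medians of other crystallin-named genes (0.15), small heat shock proteins (0.11), thyroid hormone genes (-0.055), cone markers (0.14) and lens markers (-0.17) without control 3911, of microglia (0.61), amacrine (0.15), endothelial (0.20), regulator (0.25) and lens (-0.16) genes without *Rax* iCKO 3914, of bipolar (-0.018), cone (0.044), amacrine (0.094), endothelial (0.40) and regulator (0.29) genes without control 7984, and of thyroid hormone genes (-0.026) and cone markers (0.13) without *Rax* iCKO 7983. Over the libraries left out, the medians ran from -0.35 to 0.15 for other crystallin-named genes, from -0.24 to 0.11 for small heat shock proteins, from -0.055 to 0.35 for thyroid hormone genes, from -0.17 to 0.14 for cone markers and from -1.37 to 0.61 for microglia markers.

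The labels pair no libraries. Deviations from the group means correlated at 0.50 across genes between libraries of the same run of numbers, a value that 2 against 2 gives to both pairs. With the run as a block, limma called 24 higher and 47 lower, and *Rax* (-0.82) had an adjusted p of 0.0223. The lowest adjusted p of a crystallin was then 0.156, for *Crym*.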
